A study of Mus musculus with 59 samples.

Results

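The genes described here encode phase II conjugation enzymes of the mouse liver: glutathione transferases (Gst and the microsomal Mgst genes), UDP-glycosyltransferases (Ugt) and sulfotransferases (Sult). They were taken by symbol, from probe sets annotated to exactly 1 gene symbol, with the brightest probe set kept for each gene. Of 45101 probe sets 59 met the rule, and they gave 46 of the 18193 genes measured: 20 Gst, 3 Mgst, 10 Ugt and 13 Sult genes. Of these, 38 lay above the median signal of all genes and 8 below it (Gsto2, Gstt4, Mgst2, Sult1c1, Sult1e1, Sult2b1, Sult4a1 and Sult6b1). No Ugt1 gene is among them, because the Ugt1a genes share their probe sets with each other.

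Liver RNA was taken at 4 weeks of age from wild-type mice (wt, 12 arrays), from mice with an E2f3a knock-out (3aKO, 10 arrays), from mice with an E2F1 knock-in (1KI, 10 arrays) and from mice with an E2F3b knock-in (3bKI, 5 arrays). All 4 genotypes share a mixed background of FVB/NT, 129S1/Svlmj and C57BL/6NT. E2F proteins are transcription factors best known for controlling the cell cycle, and E2f3a and E2f3b are isoforms of the same gene. No source used here gives the locus of the knock-ins or the sex of the mice. The authors normalized the arrays in 2 sets: wt, 3aKO and 1KI together, and the same wt and 3aKO arrays with 3bKI. 1KI and 3bKI therefore share no normalization and were not compared with each other, and both are set against the same wt and 3aKO arrays.

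Conjugation makes lipophilic compounds more soluble for excretion. Glutathione transferases join glutathione to electrophiles, UDP-glycosyltransferases add glucuronic acid or another sugar to bile acids, bilirubin, steroids and drugs, and sulfotransferases add a sulfonate group to phenols, steroids and bile acids. The hepatocyte is the main site of these reactions, and several of the genes are known to differ between male and female mouse liver.

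Values are log2 probe set signals, and a difference of 1 is a doubling. A gene is said to have risen or fallen when its adjusted p was under 0.05 in limma, fitted to all 18193 genes and adjusted by the Benjamini-Hochberg method. Nothing in the labels ties each array to its own mouse, so the p-values measure only how far these samples spread, which may be a technical spread. In whole liver, fewer cells of a type and less RNA per cell cannot be told apart.

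The knock-in arrays also differed from most controls in signals added or measured for quality. Hybridization controls, RNAs spiked in before hybridization, were at 11.00 or more in every 1KI and 3bKI array and in wt replicates 1 and 2, and lower in the other 10 wt and all 10 3aKO arrays. Poly-A control RNAs lay between 13.77 and 13.85 in 3bKI, against 8.19 to 9.70 in wt and 3aKO of the same normalization. In 1KI they ran from 8.98 to 10.86, against 8.55 to 9.75 in wt and 8.26 to 9.26 in 3aKO of the first normalization. RNA integrity, read as the 3' minus 5' difference of Gapdh and Actb, was 0.275 to 0.36 in 3bKI, which does not overlap wt (0.475 to 0.65) or 3aKO (0.545 to 0.755). In 1KI replicate 6 it was 1.75, where the other 1KI arrays ran from 0.445 to 0.665. Their part in the results was not tested beyond the adjusted values given beside them. E2f3, measured without regard to isoform, ran from 7.50 to 7.97 in 3aKO and from 7.70 to 8.29 in wt (change of -0.25, adjusted p = 0.134 in limma), and E2f1 in 1KI changed by -0.25 against wt (adjusted p = 0.0864) and fell by 0.29 against 3aKO (adjusted p = 0.0494), so it was higher than neither control in the arrays labelled as E2F1 knock-in. In 3bKI E2f3 fell by 0.24 against wt (adjusted p = 0.0491) and changed by -0.02 against 3aKO (adjusted p = 0.922). No source used here places these probe sets relative to the altered exons, so they do not check the labels.

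The mu class holds most of the genes that rose in 3bKI, and Sult1c2 had the largest called fall against wt in both knock-ins. The 150 bases before the start are shown for the 3 mu class genes with the highest changes in 3bKI, for Gstm5, the neighbour with no rise, and for Sult1c2. Gstm6 has 3 annotated starts, and its stretch is from the farthest upstream. The sequences are from RefSeq (GRCm38.p6), read 5' to 3' on the strand of the gene. Capitals mark the core of the antioxidant response element, TGACNNNGC on either strand, which binds NFE2L2 with a small MAF protein.
Gstm2, chr3:107986421-107986570, minus strand: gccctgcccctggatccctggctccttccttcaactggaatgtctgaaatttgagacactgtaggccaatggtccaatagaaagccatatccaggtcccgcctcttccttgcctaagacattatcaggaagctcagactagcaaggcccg
Gstm3, chr3:107969175-107969324, minus strand: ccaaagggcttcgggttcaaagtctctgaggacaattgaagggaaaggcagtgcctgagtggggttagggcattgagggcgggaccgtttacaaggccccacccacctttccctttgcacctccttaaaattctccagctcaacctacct
Gstm6, chr3:107953467-107953616, minus strand: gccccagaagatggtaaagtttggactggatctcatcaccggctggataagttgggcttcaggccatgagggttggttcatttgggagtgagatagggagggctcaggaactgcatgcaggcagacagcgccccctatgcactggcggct
Gstm5, chr3:107895704-107895853, plus strand: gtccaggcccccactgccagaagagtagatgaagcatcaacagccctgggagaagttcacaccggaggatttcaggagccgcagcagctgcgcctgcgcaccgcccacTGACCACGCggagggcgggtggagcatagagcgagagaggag
Sult1c2, chr17:53845959-53846108, minus strand: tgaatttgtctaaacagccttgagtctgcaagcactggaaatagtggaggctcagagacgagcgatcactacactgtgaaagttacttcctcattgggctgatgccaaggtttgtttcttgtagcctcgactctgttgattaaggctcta

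Of the 5 stretches shown only that of Gstm5 holds the core motif. Gstm5 is also the only mu class gene read on the plus strand. Aligned over the 150 bases before the farthest upstream start, pairs of mu class genes were 35.8% to 47.8% identical. Pairs with Gstm5 lay between 35.8% and 43.2%. No unrelated pair was aligned, so these values do not tell shared sequence from chance. Promoter sequences, from 250 bases before to 50 after a start, were found for 41 of the 46 genes, some with several starts. The antioxidant response core was in 4 of the 41 genes (9.8%: Gsta3, Gstm5, Gstm7 and Mgst1) and in 14% of all 27025 genes with a promoter. In Gstm7 the match belongs to the window of a start that lies downstream of its first. The core of the dioxin response element, GCGTG, was in 22.0% of the conjugation genes and 35.2% of all genes. The E2F motif in the forms TTTCCCGC, TTTCGCGC, TTTGCCGC and TTTGGCGC, on either strand, was in 1 of the 41 (Gsto2) and in 2.6% of all genes. These shares describe letters in a window and were not tested.

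In 3bKI liver 5 of 7 mu class glutathione transferases rose against wt, 4 of 13 sulfotransferases fell and 1 rose, and 3 of 10 UDP-glycosyltransferases fell. In 1KI liver nearly every conjugation gene that changed fell. In 3aKO liver none of the 46 passed. The share of the conjugation genes that changed was close to that of all genes in each comparison. In 3aKO against wt 0 of 46 were called by limma, where 0.176% of all genes were (0.110% higher and 0.0660% lower), and 2 had an unadjusted p under 0.05: Gsta4 with a change of 0.18 and Ugt2b37 with 0.58. In 1KI against wt 15 were called, 1 higher and 14 lower, where 27.6% of all genes were called, 10.2% higher and 17.5% lower. In 1KI against 3aKO 13 were called, all lower, where 31.0% of all genes were called, 11.9% higher and 19.0% lower. In 3bKI against wt 14 were called, 6 higher and 8 lower, where 29.2% of all genes were called, 13.4% higher and 15.9% lower. In 3bKI against 3aKO 19 were called, 8 higher and 11 lower, where 34.2% of all genes were called, 16.5% higher and 17.7% lower. With array medians set equal the split of 1KI was 0 higher and 14 lower against wt and 0 and 17 against 3aKO. That of 3bKI was 6 and 14 against wt and 6 and 13 against 3aKO. Among all called genes this setting also lowered the share of higher calls. In 1KI it went from 36.8% to 26.8% against wt and from 38.6% to 27.8% against 3aKO. In 3bKI it went from 45.8% to 32.1% and from 48.3% to 33.2%. A fit that blocked on the hybridization control level (the level block), in which wt replicates 1 and 2 are the link between levels, called 3 genes of 1KI against either control, and for 3bKI 5 against wt and 2 against 3aKO. Because the block rests on these 2 wt arrays, genotype and this level cannot be fully told apart for any gene, called or not. The counts under the block have no share of all genes beside them, so they show no loss particular to the conjugation genes. The block also leaves out the poly-A signal and RNA integrity of 3bKI, which overlap neither control group. It leaves out the poly-A signal of 1KI as well, which overlaps both control groups and reaches above them.

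**Figure D1:**
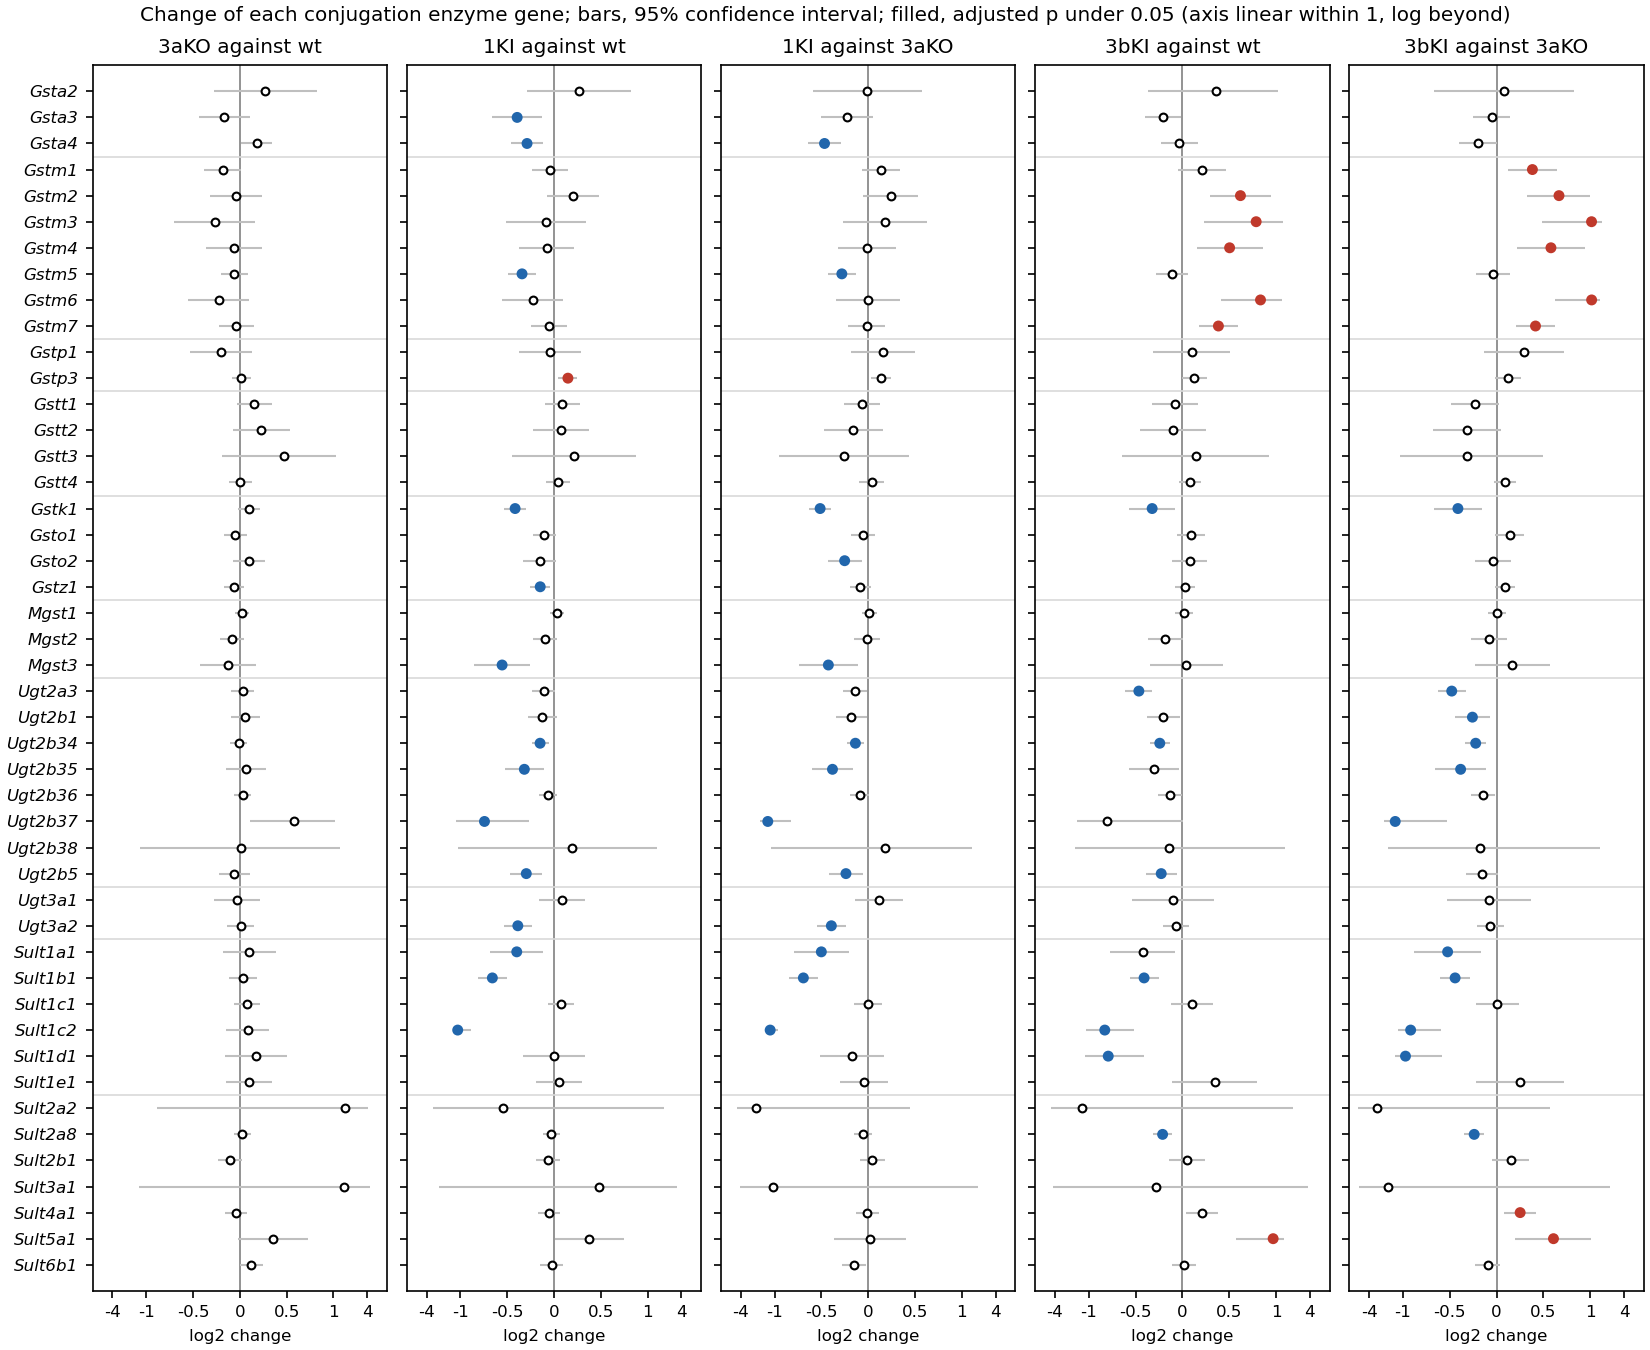
Log2 change of each of the 46 genes (rows, grouped by family) in the 5 comparisons (columns), with 95% confidence intervals from limma; filled points have an adjusted p under 0.05, red higher and blue lower, and the axis is linear within 1 and logarithmic beyond. No point is filled in 3aKO against wt, and the filled points of the 1KI columns lie almost all to the left. In the 3bKI columns most Gstm rows are filled to the right, and Gstm5 is filled in neither.

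The mu class (Gstm) genes form 1 cluster on chromosome 3, where all 7 lie side by side with no other protein-coding gene between them. In 3bKI against wt 5 of the 7 rose and 0 fell, with a median change of 0.50 in the family against 0.00 over all genes. In 3bKI against 3aKO 6 rose, with a median of 0.58 against 0.02. Of all genes 13.4% rose in 3bKI against wt and 16.5% against 3aKO. In 1KI against wt 0 rose and 1 fell, with a median of -0.08 against -0.05, and in 3aKO against wt none passed.

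Gstm2 was the mu class gene whose groups separated. Its 5 3bKI arrays read 11.04, 10.58, 10.63, 10.73 and 10.95, and wt ran from 9.75 through a median of 10.19 to 10.46. Every 3bKI array lay above every wt array, and 2 lay above every 3aKO array (9.63, 10.00, 10.87). The change was 0.62 ± 0.16 (SE) against wt (1.54-fold, adjusted p = 0.00374 in limma).

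Gstm6 read 9.76, 10.52, 9.28, 10.17 and 10.63 in 3bKI, against 8.81, 9.13 and 9.78 (lowest, median and highest) in wt and 8.44, 8.90 and 9.84 in 3aKO. Of these arrays 3 lay above both control groups and the other two within wt. The change was 0.83 ± 0.21 against wt and 1.06 ± 0.21 against 3aKO (adjusted p = 0.00271 and 0.000258 in limma).

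Gstm3 read 12.26, 12.97, 11.87, 12.78 and 13.16 in 3bKI, against 10.54, 12.04 and 12.60 in wt and 10.98, 11.45 and 12.57 in 3aKO. The 3 highest arrays stood above all controls. The change was 0.79 ± 0.27 against wt and 1.06 ± 0.28 against 3aKO (adjusted p = 0.0281 and 0.00377 in limma). A dimmer probe set of Gstm3 rose by 0.89 and 1.19.

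Gstm4 read 10.41, 10.59, 10.49, 10.86 and 10.78 in 3bKI, against 9.35, 10.17 and 10.62 in wt, with a change of 0.50 ± 0.17 (adjusted p = 0.0266 in limma). Gstm7 read 10.46, 9.97, 10.25, 9.92 and 10.42, against 9.36, 9.86 and 10.16 in wt, with a change of 0.38 ± 0.10 (adjusted p = 0.00388). In both genes the 3bKI arrays reached from within the wt range to above it. A dimmer probe set of Gstm7 was not called, with 0.05 against wt and 0.15 against 3aKO (adjusted p = 0.751 and 0.213 in limma). Gstm1 rose against 3aKO by 0.38 ± 0.13 (adjusted p = 0.0193 in limma), while its change against wt was 0.21 (adjusted p = 0.22), and 2 of its other probe sets rose against 3aKO by 0.42, but the mean of all its probe sets missed the threshold (adjusted p = 0.0503). The dimmest probe set of Gstm1 changed by -0.10 against wt and 0.21 against 3aKO in 3bKI (adjusted p = 0.638 and 0.261 in limma). Gstm5 changed by -0.11 against wt in 3bKI (adjusted p = 0.345) and fell in 1KI by 0.34 ± 0.07 (adjusted p = 0.000474 in limma).

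No mu class call in 3bKI held with the level block or with RNA integrity as a covariate. With the block the changes against wt were 0.43 for Gstm2, 0.44 for Gstm3, 0.19 for Gstm4, 0.61 for Gstm6 and 0.28 for Gstm7 (adjusted p from 0.278 to 0.733 in limma). The calls of Gstm3 and Gstm4 were also lost when 3bKI replicate 4 or 5 was left out, and that of Gstm3 without replicate 2. Mu class sequences resemble each other, and how far a probe set reads its neighbours' RNA was not tested.

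**Figure D2:**
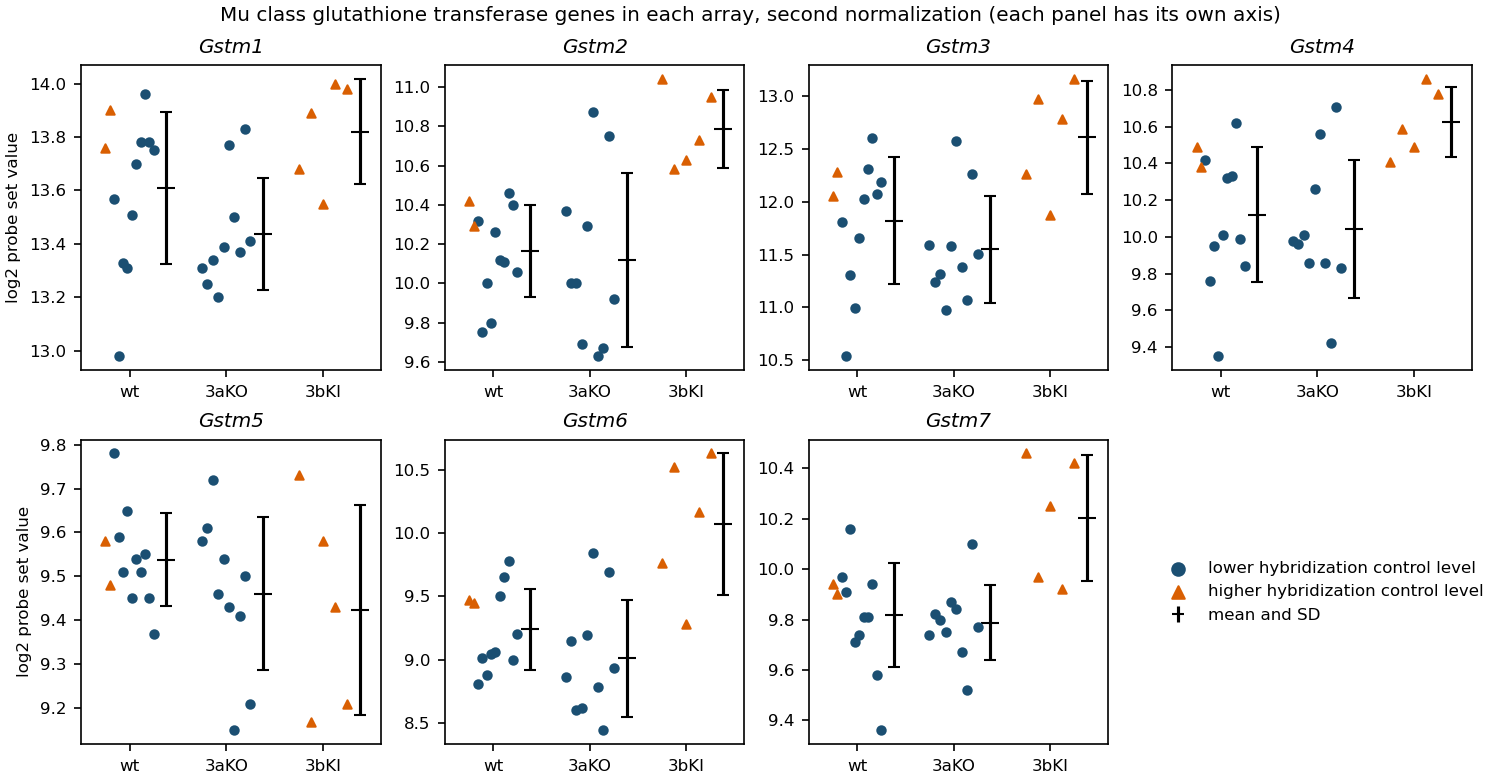
Log2 value of the 7 mu class genes in each wt, 3aKO and 3bKI array of the second normalization; triangles mark arrays at the higher hybridization control level and bars give mean and SD. The 5 3bKI arrays of Gstm2 all lie above wt, and for Gstm5 the 3 genotypes overlap.

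Among the alpha class, which conjugates electrophiles made by lipid peroxidation, Gsta3 and Gsta4 fell in 1KI. Gsta3 ran from 11.35 through 13.05 to 13.12 in 1KI and from 13.03 through 13.19 to 13.73 in wt, a change of -0.39 ± 0.13 (adjusted p = 0.0251 in limma). The low end is replicate 6 alone, the array with the RNA integrity reading of 1.75, and without it the change was -0.23 (adjusted p = 0.0113). Against 3aKO the change was -0.23 with that array (adjusted p = 0.224) and -0.06 without it. Gsta4, which acts on hydroxynonenal, ran from 10.21 through 10.77 to 11.17 in 1KI, 10.81 through 11.04 to 11.28 in wt and 11.07 through 11.23 to 11.43 in 3aKO. It fell by 0.29 ± 0.08 against wt and by 0.47 ± 0.09 against 3aKO (adjusted p = 0.00885 and 8.63e-05 in limma). Gsta2 was not called in any comparison, with changes of 0.26 in 1KI and 0.36 in 3bKI against wt. A probe set shared by Gsta1, Gsta2 and Gm3776 gave 0.05 and 0.55, also not called. In 3bKI the chosen probe set of Gsta3 changed by -0.21 against wt (adjusted p = 0.0976) while a dimmer one fell by 0.54 (adjusted p = 0.000266 in limma), so the probe sets of Gsta3 do not give the same call.

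Gstk1, the kappa class enzyme of mitochondria and peroxisomes, fell in both knock-ins. It ran from 12.13 through 12.37 to 12.54 in 1KI, from 12.53 through 12.78 to 12.89 in wt and from 12.59 through 12.88 to 13.06 in 3aKO. Every 1KI array lay below every 3aKO array, and 9 of 10 lay below every wt array. The change was -0.42 ± 0.06 against wt and -0.51 ± 0.06 against 3aKO (adjusted p = 1.08e-06 and 4.14e-08 in limma), and with the level block -0.37 (adjusted p = 0.0298) and -0.46 (adjusted p = 0.0303). In 3bKI it read 13, 11.79, 12.72, 12.59 and 11.88, so that replicates 2 and 5 were low and replicate 1 was above all controls. The change against wt was -0.32 ± 0.12 (adjusted p = 0.0448), a call kept in 5 of 17 fits that each left out 1 array, with changes of -0.47 to -0.17.

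The other glutathione transferases moved little. Gstz1, an enzyme of tyrosine breakdown, fell in 1KI by 0.15 ± 0.05 against wt (adjusted p = 0.0353 in limma), and Gstp3 of the pi class rose there by 0.15 ± 0.05 (adjusted p = 0.0266). The call of Gstz1 was lost without 1KI replicate 6 (change of -0.10, adjusted p = 0.068) and in 6 of the other fits that left out 1 array. The direction of Gstp3 turned to -0.02 with the level block. Gsto2 fell in 1KI against 3aKO by 0.25 ± 0.09 (adjusted p = 0.0295), at a level of 3.69 that is low on the array. Gsto1, an omega class enzyme, was not called on its chosen probe set (-0.11 in 1KI and 0.09 in 3bKI against wt), but an _x_at probe set of it fell by 0.25 and 0.61. Gstp1 and the theta genes Gstt1, Gstt2, Gstt3 and Gstt4 passed in none of the 5 comparisons.

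Of the microsomal enzymes, Mgst3 fell in 1KI. It ran from 8.21 through 8.57 to 9.26 there and from 8.86 through 9.17 to 9.77 in wt, with 7 of 10 1KI arrays below every wt array. The change was -0.56 ± 0.15 against wt (1.47-fold, adjusted p = 0.00495 in limma) and -0.22 with the level block (adjusted p = 0.686). A dimmer probe set of Mgst3, at 5.4 in 1KI, changed by -0.10 there against wt (adjusted p = 0.248 in limma). Mgst1, among the brightest of all probe sets at about 14.2 in every genotype, changed by 0.03 in 1KI and 0.02 in 3bKI against wt. Mgst2 was not called, with -0.09 and -0.18.

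The Ugt2 family lies on chromosome 5 in 1 run with Sult1b1, Sult1d1 and Sult1e1. Of its 8 measured genes none rose. In 1KI 4 fell against wt and 4 against 3aKO, and in 3bKI 3 fell against wt and 5 against 3aKO. Of all genes 17.5% and 19.0% fell in 1KI, and 15.9% and 17.7% in 3bKI. The median change was -0.14 in 1KI and -0.23 in 3bKI against wt, where all genes had -0.05 and 0.00.

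Ugt2a3, a bile acid glucuronosyltransferase, fell in 3bKI. Its arrays read 11.83, 11.62, 11.45, 11.67 and 11.75, and the controls ran from 11.99 through 12.13 to 12.33 in wt and from 11.98 through 12.16 to 12.40 in 3aKO. All 5 lay below every control array. The change was -0.47 ± 0.07 against wt and -0.48 ± 0.07 against 3aKO (adjusted p = 8.4e-06 and 6.34e-06 in limma). With the level block it was -0.48 and -0.49 (adjusted p = 0.00825 and 0.0182). In 1KI it changed by -0.11 (adjusted p = 0.176).

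Ugt2b37 had the largest called changes among the Ugt2b genes, which glucuronidate steroids and drugs. It ran from 8.40 through 10.02 to 10.78 in 1KI, from 9.72 through 10.60 to 12.06 in wt and from 10.49 through 11.30 to 11.68 in 3aKO. The change was -0.74 ± 0.23 against wt and -1.32 ± 0.24 against 3aKO (adjusted p = 0.0162 and 7.78e-05 in limma). In 3bKI it read 11.47, 8.86, 11.42, 8.79 and 8.32, with 2 arrays inside the control ranges and 3 below them, and fell against 3aKO by 1.37 ± 0.41 (adjusted p = 0.00979), but not against wt (-0.81, adjusted p = 0.136).

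Ugt2b34 fell by 0.15 in 1KI and 0.24 in 3bKI against wt (adjusted p = 0.0111 and 0.000838 in limma), and a dimmer probe set of it fell by 0.30 and 0.22. Ugt2b5 fell by 0.30 and 0.23 (adjusted p = 0.00754 and 0.0346), though the second call was kept in 11 of 17 fits that left out 1 array. Ugt2b35 fell by 0.32 in 1KI against wt (adjusted p = 0.0203 in limma) and changed by -0.30 in 3bKI (adjusted p = 0.0822). Ugt2b1 fell in 3bKI against 3aKO alone, by 0.26 (adjusted p = 0.0262), and Ugt2b36 was not called. Ugt3a2, which uses sugars other than glucuronic acid, ran from 11.64 through 12.33 to 12.57 in 1KI and from 12.56 through 12.61 to 12.81 in wt, and fell by 0.39 ± 0.07 (adjusted p = 0.000133 in limma). In 3bKI it changed by -0.07, and Ugt3a1 was not called anywhere. The 3 probe sets shared by the Ugt1a genes, which include the bilirubin enzyme Ugt1a1, changed by -0.12, -0.04 and 0.00 in 1KI and by -0.20, -0.15 and -0.03 in 3bKI against wt. The first fell in 1KI and in 3bKI (adjusted p = 0.0199 and 0.0025 in limma). The second fell in 3bKI (adjusted p = 0.0063), and the rest was not called.

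In the Sult1 family 3 of 6 genes fell in 1KI and 3 of 6 in 3bKI against wt, with medians of -0.20 and -0.42. Against 3aKO 4 fell in 3bKI. Of all genes 17.5% fell in 1KI and 15.9% in 3bKI against wt, with medians of -0.05 and 0.00. In 3bKI against 3aKO 17.7% of all genes fell. Among the 46 genes the largest called fall against wt, in either knock-in, was that of the sulfotransferase Sult1c2. In 1KI it ran from 7.03 through 7.35 to 7.59, in wt from 7.88 through 8.50 to 8.85 and in 3aKO from 7.95 through 8.52 to 9.06. All 10 1KI arrays lay below every control array. The change was -1.12 ± 0.11 against wt (2.17-fold) and -1.20 ± 0.12 against 3aKO (adjusted p = 8.69e-09 and 3.57e-09 in limma).

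In 3bKI Sult1c2 read 8.11, 7.57, 7.32, 7.54 and 7.53, where wt ran from 7.87 through 8.50 to 8.86. Replicate 1 lay within the wt range and the others below it. The change was -0.83 ± 0.15 against wt and -0.92 ± 0.16 against 3aKO (adjusted p = 0.000102 and 3.23e-05 in limma). With the level block the change against wt was -1.10 in 1KI (adjusted p = 0.00206) and -0.80 in 3bKI (adjusted p = 0.0379). Sult1c1, its neighbour on chromosome 17, was at 4.81, 4.76, 4.44, 3.90 and 4.21 in 3bKI, and was not called in any comparison.

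Sult1b1, which sulfonates thyroid hormones and phenols, ran from 7.66 through 8.11 to 8.60 in 1KI and from 8.60 through 8.78 to 8.90 in wt. Of the 10 arrays, 9 lay below every wt array and the tenth equalled the lowest. The change was -0.66 ± 0.07 (adjusted p = 5.98e-08 in limma), and -0.56 with the level block (adjusted p = 0.0144). In 3bKI it read 8.69, 8.08, 8.25, 8.38 and 8.42, and fell by 0.41 ± 0.08 against wt (adjusted p = 0.000113), with -0.31 under the block (adjusted p = 0.103).

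Sult1d1, a catecholamine sulfotransferase, fell in 3bKI. It read 11.41, 10.29, 10.41, 10.31 and 10.51, where wt ran from 10.94 through 11.52 to 11.92, so that replicate 1 was inside and the others were below the wt range. The change was -0.79 ± 0.18 against wt and -0.97 ± 0.19 against 3aKO (adjusted p = 0.00147 and 0.000183 in limma), and a dimmer probe set fell by 0.87 and 1.11. In 1KI it changed by 0.00 against wt (adjusted p = 0.987). With the block the 3bKI change was -0.36 (adjusted p = 0.486).

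Sult1a1, the main phenol sulfotransferase, fell in 1KI by 0.40 ± 0.14 against wt (adjusted p = 0.0314 in limma), a call kept in 15 of 22 fits that left out 1 array. In 3bKI it changed by -0.42 against wt (adjusted p = 0.0604) and fell by 0.52 against 3aKO (adjusted p = 0.0204). Sult1e1, the estrogen sulfotransferase, lay at low signal and was not called.

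Sult5a1 was the only sulfotransferase called higher against wt, in 3bKI. In 3bKI it read 10.28, 9.90, 9.65, 9.81 and 10.67, where wt ran from 8.09 through 9.01 to 9.65 and 3aKO from 8.70 through 9.43 to 9.88. All lay above every wt array but replicate 3, which equalled the highest. The change was 0.97 ± 0.20 against wt (1.96-fold) and 0.61 ± 0.20 against 3aKO (adjusted p = 0.000313 and 0.0194 in limma). With the block it was 1.00 against wt (adjusted p = 0.0437) and 0.65 against 3aKO (adjusted p = 0.303). In 1KI the change against wt was 0.38 (adjusted p = 0.12).

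Sult2a8, a bile acid sulfotransferase, fell narrowly in 3bKI. It read 13, 13.10, 13.07, 13.09 and 12.97, and no array reached the lowest of wt (13.12) or of 3aKO (13.14). The change was -0.21 ± 0.05 against wt and -0.24 ± 0.05 against 3aKO (adjusted p = 0.00172 and 0.000559 in limma), and -0.27 and -0.31 with the block (adjusted p = 0.0272 and 0.031). Sult4a1 rose by 0.25 against 3aKO at low signal (adjusted p = 0.0203), but not as the mean of its probe sets (0.04). Sult2b1, the cholesterol sulfotransferase, was not called.

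**Figure D3:**
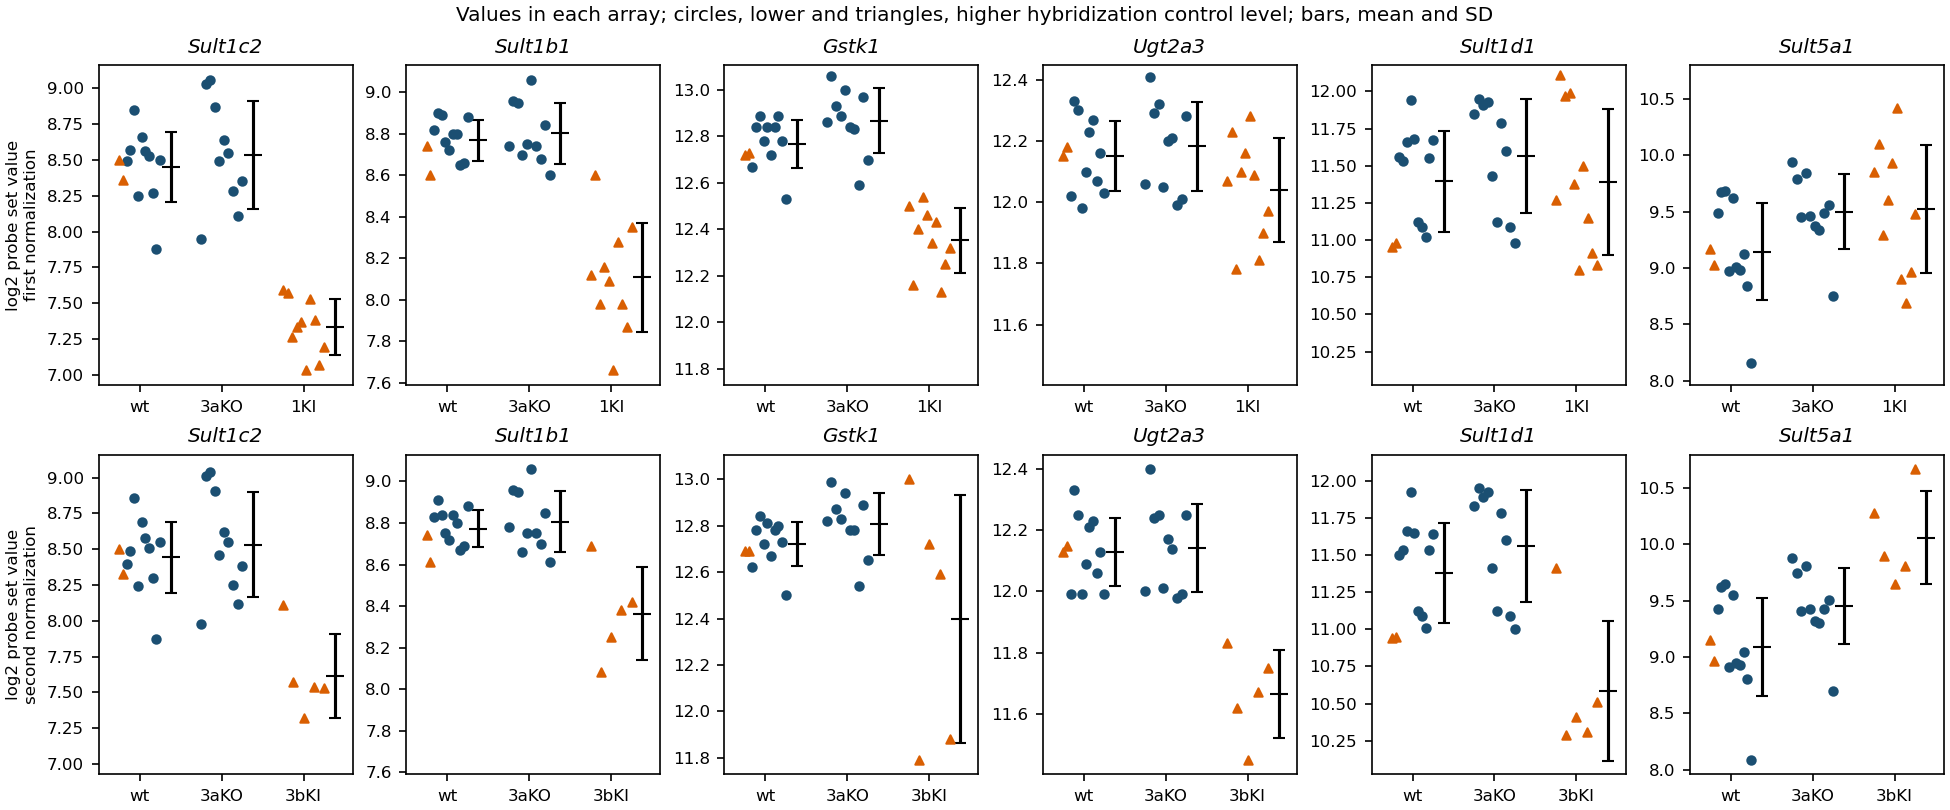
Log2 value of Sult1c2, Sult1b1, Gstk1, Ugt2a3, Sult1d1 and Sult5a1 in each array, with 1KI beside its controls in the upper row and 3bKI in the lower row; triangles mark the higher hybridization control level and bars give mean and SD. All 1KI arrays of Sult1c2 lie below the controls (highest 7.59), all 3bKI arrays of Ugt2a3 do so (highest 11.83), and Sult1d1 overlaps wt in 1KI.

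The widest variation among the 46 genes ran within genotypes. An index from Xist (at 1) and 4 Y-linked genes (at 0) placed the arrays in separate clusters, below 0.143 and above 0.906 in the first normalization, and the Xist cluster held 5 of 12 wt, 5 of 10 3aKO, 5 of 10 1KI and 2 of 5 3bKI arrays. With genotype in the limma fit, 18 of the 46 had a slope on this index, 10 higher with Xist and 8 higher with the Y-linked genes, where 4.84% of all genes did (3.03% and 1.81%). In the second normalization 20 did, and 16 were called in both. By family, 5 of the 8 Ugt2 genes were higher with the Y-linked genes, and 2 of 6 Sult1 and 3 of 7 other Sult genes were higher with Xist. Of known female-biased liver genes 5 of 6 were higher with Xist (Cyp2b13 with a slope of 3.81) and 6 of 7 male-biased genes were higher with the Y-linked genes (Cyp4a12a with -3.15), while Cux2 (-0.05) and Slco1a1 (-0.15) were not called.

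Sult2a2 and Sult3a1 had the steepest slopes. Sult2a2, a hydroxysteroid and bile acid sulfotransferase, ran from 12.90 to 13.47 in the 5 wt arrays with Xist and from 5.86 to 10.76 in the 7 without, and its slope was 5.97 ± 0.47 (adjusted p = 4.18e-11 in limma). The 5 3aKO arrays without Xist lay between 8.33 and 9.64, the 5 of 1KI between 4.51 and 8.04 and, in the second normalization, the 3 of 3bKI between 3.85 and 5.36. Among arrays with Xist, 1KI ran from 9.18 to 13.55 and 3aKO from 12.93 to 13.70. Without the index, Sult2a2 changed by 1.60 in 3aKO against wt (adjusted p = 0.636) and -2.15 in 1KI against 3aKO (adjusted p = 0.209). With the index as a covariate its change against 3aKO was -2.25 in 1KI (adjusted p = 0.00133 in limma) and -2.53 in 3bKI (adjusted p = 0.00309), and with the level block too these were -0.37 and -0.93 (adjusted p = 0.903 and 0.702).

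Sult3a1, an amine sulfotransferase, ran from 11.93 to 12.89 in wt arrays with Xist and from 4.29 to 7.47 in those without, a slope of 7.24 ± 0.45 (adjusted p = 1.15e-13 in limma). In 1KI the arrays with Xist ran from 10.16 to 12.48. Ugt2b38 went the other way, from 6.59 to 8.35 with Xist and from 8.52 to 10.51 without in wt, a slope of -2.94 ± 0.29. Gstt3 had a slope of 1.56 ± 0.14, and no array of the Y-linked cluster (highest 9.52) reached the lowest with Xist (9.67). Gstp1 had a slope of -0.80 ± 0.06, with 13.02 to 13.49 against 13.78 to 14.33. Gstm3 and Gstm1 were lower with Xist by 0.75 and 0.36, and Gstt1, Mgst3, Sult1a1, Sult1d1 and Sult5a1 were higher by 0.37 to 0.61.

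Since 3 of 5 3bKI arrays were without Xist, the mu class result was read beside the index. The 3 highest Gstm3 arrays of 3bKI (12.78, 12.97 and 13.16) were those without Xist, where wt ran from 12.03 to 12.60, and the other two (11.87 and 12.26) stood above wt arrays with Xist (10.54 to 11.81). Ugt2b37 split the same 3bKI arrays in the opposite direction, at 8.32 to 8.86 without and 11.42 to 11.47 with Xist. Its slope on the index was 0.39 in the first normalization and 1.19 in the second (adjusted p = 0.338 and 0.00244 in limma). With the index as a covariate 1KI had 16 calls against wt and 15 against 3aKO, and 3bKI had 21 and 24. Every call made without the index was among them. The share of all genes called with the covariate was not set beside these counts. The part of the clusters in the genotype differences was not tested.

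**Figure D4:**
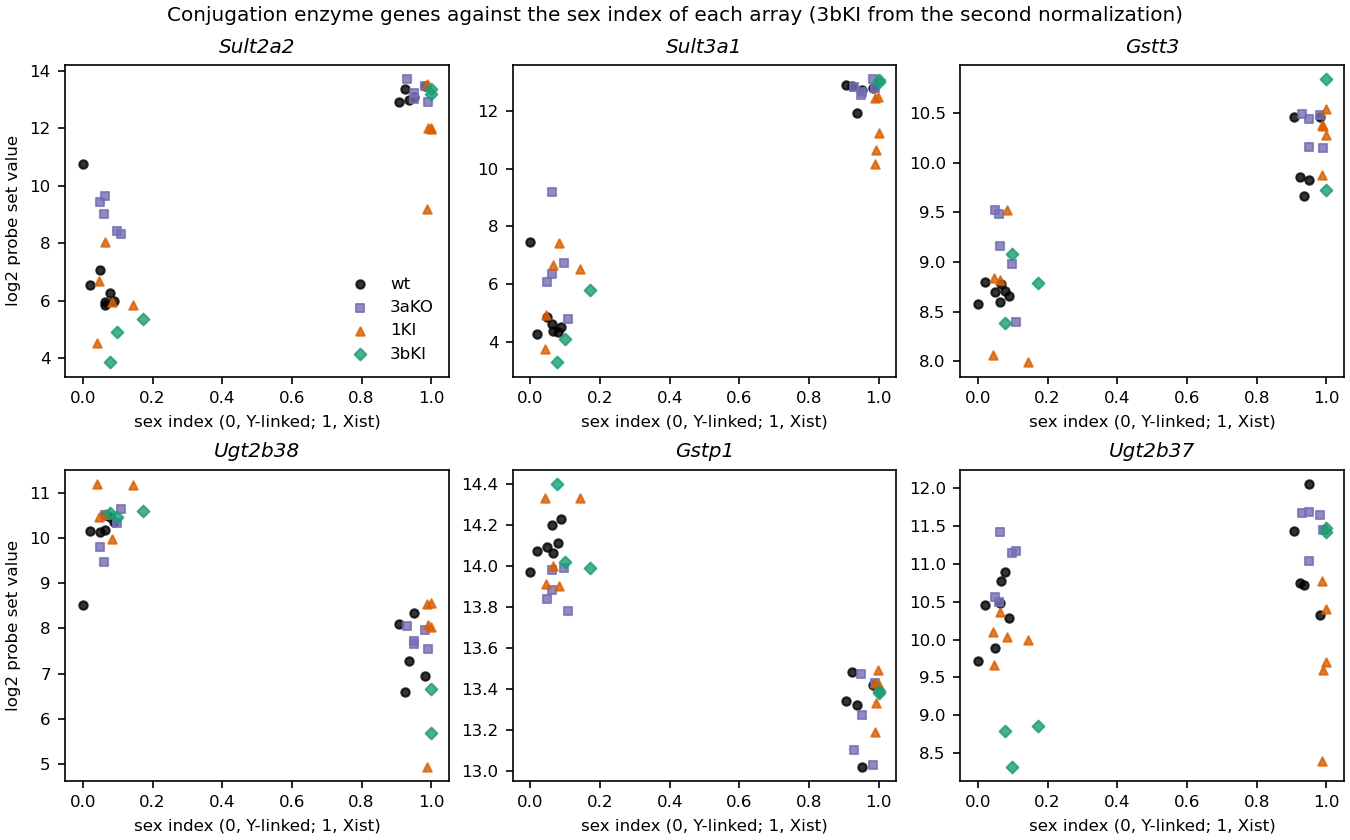
Log2 value of Sult2a2, Sult3a1, Gstt3, Ugt2b38, Gstp1 and Ugt2b37 (each vertical axis) against the sex index of each array (horizontal axis), with symbols by genotype. The arrays fall in 2 clusters on the index, and 3bKI values are from the second normalization. In the first normalization the levels of Sult3a1, Gstt3 and Gstp1 do not overlap between the clusters (Sult3a1 reaches 9.2 in the Y-linked cluster and starts at 10.16 in the other).

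Genes around the conjugation reactions were counted from lists, to be read against all genes tested (10.2% higher and 17.5% lower in 1KI and 13.4% and 15.9% in 3bKI against wt). In 3aKO against wt no gene of the 6 lists passed. Of 12 other conjugation enzymes (acetyl-, methyl- and acyltransferases) 0 rose and 7 fell in 1KI against wt, and likewise 0 and 7 in 3bKI against wt, with medians of -0.20 and -0.36 where all genes had -0.05 and 0.00. The methyltransferase Inmt fell by 0.75 and 0.92, the thiopurine methyltransferase Tpmt by 0.21 and 0.43, the acetyltransferase Nat1 by 0.45 in 1KI and the medium-chain acyl-CoA synthetase Acsm3 by 0.25 and 0.55.

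Of 16 genes that supply glutathione, UDP-glucuronic acid or the sulfonate donor, 0 rose and 7 fell in 1KI and 1 rose and 6 fell in 3bKI against wt. Over all genes these shares were 10.2% higher and 17.5% lower in 1KI and 13.4% and 15.9% in 3bKI. Ugp2, which makes UDP-glucose, fell by 0.38 and 0.32, Gss, the glutathione synthetase, by 0.25 and 0.28, and Bpnt1, which clears the spent sulfonate donor, by 0.27 and 0.57. Cbs, an enzyme of cysteine synthesis, rose by 0.77 in 3bKI.

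Of 15 xenobiotic regulators 5 rose and 2 fell in 1KI and 2 rose and 5 fell in 3bKI against wt. The receptors Nr1i2 and Nr1i3 rose by 0.60 and 0.46 in 1KI and were not called in 3bKI, Mafg rose by 0.56 and 0.49, and Ahr fell by 0.40 and 0.48. Its partner Arnt fell by 0.65 in 3bKI. Of 11 other NFE2L2 targets 0 rose and 2 fell in 1KI (Hmox1 by 0.46 and Nqo1 by 0.50), and 0 and 1 in 3bKI (Txnrd1 by 0.26), shares of 18.2% and 9.1% where 27.6% and 29.2% of all genes were called. Of 9 efflux transporters 0 rose and 1 fell in each (11.1%), Abcb1a, by 0.66 and 0.84. Of 7 deconjugation genes none passed in 1KI, by limma, with 2 at an unadjusted p under 0.05, and 3 rose in 3bKI (Ggt6 by 0.52, Arsb by 0.34 and Dpep1 by 0.26).

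Markers of liver cell types were summed per array. The sum over 8 hepatocyte markers lay between 17.37 and 17.47 in all arrays of the first normalization and between 17.38 and 17.46 in the second. It rests mostly on probe sets near the highest value of the arrays (15.06), so it may miss a change in hepatocytes. Pericentral sums ran from 15.14 to 15.56 in 1KI and 15.24 to 15.44 in wt. Periportal sums ran from 15.81 to 16.12 and from 15.84 to 16.04. In 3bKI both also overlapped wt. Sums for macrophages (12.38 to 13.66 in 1KI, 12.67 to 13.16 in wt), cholangiocytes, sinusoidal endothelial cells, stellate cells and lymphocytes overlapped between genotypes, and 1 3bKI array reached an erythroid sum of 11.78, above wt (8.28 to 9.90). Of the 8 macrophage markers, 4 fell in 1KI against 3aKO and 0 in 1KI against wt, where 19.0% and 17.5% of all genes fell. Of 7 sinusoidal endothelial markers 2 rose and 1 fell in 1KI against 3aKO (all genes: 11.9% higher and 19.0% lower). In 3bKI against wt 2 of 6 periportal hepatocyte markers rose and 2 fell. Of 7 stellate markers 1 rose and 2 fell there (all genes: 13.4% higher and 15.9% lower). The part of cell types in the results was not tested.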

How the data were processed

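The deposited values are log2 probe set signals of 59 columns (37 arrays), normalized by the authors in 2 sets, by a method that no source used here gives. The base was read from the values, which run from 2.13 to 15.06. RNA was extracted with Trizol and labelled from 5 µg, per the labels' protocols. Probe sets (45101) were named through the platform annotation. Those with 1 symbol (34945) were reduced to 18193 genes by the highest mean signal. In R 4.3.3, limma 3.58.1 (lmFit and eBayes) was run over all arrays of a normalization, and errors are moderated standard errors. No filter on low signal was applied. The script was tested on simulated data with known changes. Array number limits precision.

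The conjugation genes, the lists, the named genes (a fixed set of members, the 5 highest and 5 lowest calls per comparison, and up to 3 per list with the smallest p) and the tests were chosen with earlier results of these data known. Genes named outside that rule were chosen after their values were seen. Alternatives were compared groups alone, eBayes trend, probe set and scaling choices, array weights, covariates, blocks and left-out arrays. Promoters were searched in Python 3.11.15 with Biopython 1.88.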

Additional observations from a re-analysis of the deposited data

Results flagged for a closer look

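Among 138 groups of 5 or 10 arrays, 13 had a highest or lowest array that stood apart from the others (9.4%, where about 5% do so by chance). Standing apart was judged by the gap to the next array as a share of the range. Genes share the same arrays, so the groups are not independent and the 5% is only a rough guide. Low in 1KI replicate 6 were 3 genes: Gsta3 at 11.35 (the next array at 12.77), Gstz1 at 12.02 and Sult2b1 at 5.06. This array had a 3' minus 5' difference of 1.75, and its part in these values was not tested. Low in 1KI replicate 3, which has Xist, were Ugt2b1 at 12.65, Ugt2b37 at 8.40 and Ugt2b38 at 4.94. In 1KI replicate 1 Gstt2 was low at 10.67.

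In 3bKI replicate 1, Sult1d1 was high at 11.41 (the next at 10.51) and Sult1e1 at 5.78. In 3aKO replicate 1 Gsto1 was low at 10.82, Mgst2 low at 4.36 and Sult1e1 high at 4.86, and in 3aKO replicate 10 Sult5a1 was low at 8.75.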

How the results depend on the processing

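Counts of called genes kept within 1.5 times under most choices, and the exceptions were adjustments for control signals. With the level block 1KI kept 3 against wt and 3 against 3aKO and 3bKI 5 and 2, and with the block and the sex index these were 4, 3, 5 and 3. Against wt replicates 1 and 2 alone, both without Xist, limma called 1 in 1KI (Sult1c2) and 0 in 3bKI, where 8 had an unadjusted p under 0.05. With RNA integrity as a covariate, which nearly equals the genotype in 3bKI, limma called 2 for 3bKI against wt and 0 against 3aKO (7 at an unadjusted p under 0.05). No share of all genes called stands beside these adjusted counts, so they show no loss particular to the conjugation genes. Gstp3 in 1KI against wt turned to -0.022 with the block, -0.050 with the block and index and -0.022 within the level. Leaving out 1 array gave 0 to 0 calls for 3aKO, 13 to 16 for 1KI against wt and 11 to 14 against 3aKO, and 12 to 17 for 3bKI against wt and 15 to 19 against 3aKO. The cause of these changes was not tested. Called in every such fit were 12 of 15, 9 of 13, 10 of 14 and 11 of 19 genes. Replicate numbers did not meet the rule for pairing, since not every same-numbered pair correlated over 0.1 (range -0.42 to 0.53). Same-numbered 3aKO and 1KI arrays had a median of 0.304 (other pairs -0.002) and 7 of 10 over 0.1, and wt and 3aKO had 0.186 (other pairs -0.006) and 6 of 10. In 3aKO and in 1KI, replicates 1 to 5 were in the Xist cluster and 6 to 10 in the Y-linked cluster. Same-numbered arrays of these 2 groups therefore share the cluster, also in a replicate block. In wt the Xist arrays were replicates 3 to 7. The part of the clusters in these correlations was not tested. A replicate block gave 0, 12, 15, 12 and 18 calls. Leaving out wt replicates 1 and 2, or 1KI replicate 6, was chosen after seeing the data, as was the fit of single probe sets.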
